A study of Mus musculus with 4 samples.

Results

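The cytosolic ribosomal protein genes were examined for Trim33 occupancy in mouse T helper 17 (Th17) cells. A symbol rule on RefSeq protein-coding genes of mm10 chose them: Rpl, Rplp or Rps followed by a digit, or Rpsa. The pattern matched 101 genes. The 10 Rps6k kinase genes were left out, as was Rps19bp1, which encodes a protein that binds a ribosomal protein. The remaining 90 genes, of 21887 protein-coding genes in all, fell into 77 core genes (46 of the large subunit and 31 of the small subunit) and 13 paralogs or retrogenes, told apart by suffixes of the symbol such as l, rt or ps. Naive CD4+ T cells from spleen and lymph nodes of C57BL/6 mice were turned into Th17 cells in culture, typically on plates coated with antibodies to CD3 and CD28, with IL-6, TGF-b and antibodies that block IL-4 and IFN-g. All 4 libraries share this strain and culture, and no line without Trim33 is among them. Trim33 was precipitated with 1 antibody (A301-060A) in 2 chromatin immunoprecipitation (ChIP) libraries, and 2 libraries were input DNA.

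The authors deposited a single list, with 27050 peaks from the merged ChIP replicates. It gives each peak an interval, a summit and the authors' fold enrichment over background at the summit. There is no value per library, so nothing below has an error between cultures, no comparison has a test, and the depth of the libraries is unknown. Of 6 marker genes of CD4 T cells and Th17 cells (Cd4, Cd3e, Il17a, Il17f, Il23r and Ccr6), all 6 had a summit in the gene or its 10 kb flanks, as did 53.9% of all protein-coding genes, and 3 had one at a gene end. Occupancy is not expression, so this does not show which cells were in the culture.

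Each cytosolic ribosome has a small subunit that reads the messenger RNA and a large subunit that joins amino acids, and the ribosomal proteins coat and fold the ribosomal RNA of both. Their genes are scattered over the chromosomes, are transcribed at high rates in dividing cells, and have short first exons that start within a stretch of pyrimidines. Activated T cells enlarge and raise protein synthesis before they divide. Trim33 is a chromatin-bound ubiquitin ligase of the TRIM family that binds modified histone tails and works with SMAD proteins downstream of TGF-beta receptors.

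Trim33 was found at most core ribosomal protein genes. A summit lay within 1000 bp of a gene end at 57 of 90 genes (63.3%), where 33.4% of all protein-coding genes had one. Among the 77 core genes the count was 54 (70.1%), and among the 13 paralogs and retrogenes it was 3 (23.1%). Both subunits had similar counts, with 32 of 46 core genes of the large subunit (69.6%) and 22 of 31 of the small subunit (71.0%). The core genes are short, with a median length of 3175 bp against 17169 bp over all genes. Of the 8797 protein-coding genes no longer than the longest core gene (11774 bp), 23.4% had a gene-end summit.

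**Figure D1:**
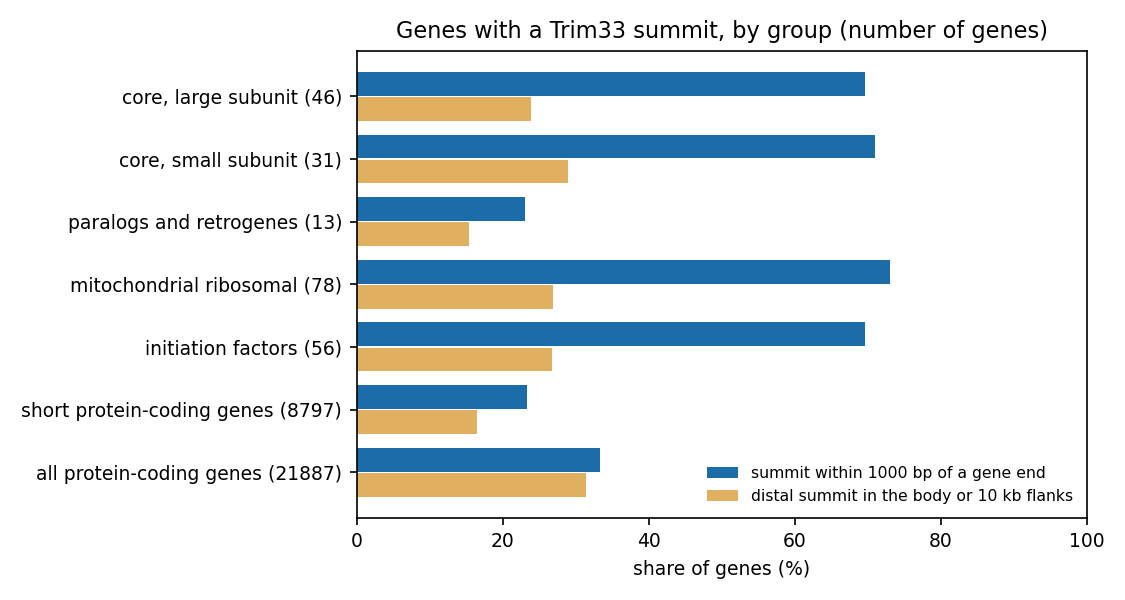
Horizontal bars give the share of genes (%) with a Trim33 summit within 1000 bp of a gene end (blue) and with a distal summit in the body or 10 kb flanks (yellow), for 7 groups with their number of genes in parentheses. Core genes of both subunits, at 69.6% and 71.0%, stand near the mitochondrial ribosomal protein genes (73.1%) and initiation factor genes (69.6%), and the paralogs (23.1%) stand near short protein-coding genes (23.4%).

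A share of this size was also found at other genes of protein synthesis. The mitochondrial ribosomal protein genes, which serve the ribosome of the organelle, had a gene-end summit at 57 of 78 (73.1%). The translation initiation factor genes, chosen by the symbol Eif followed by a digit, had one at 39 of 56 (69.6%). That symbol rule also takes in Eif4ebp1 and Eif4ebp2, so not all of the 56 encode initiation factors. Both had a gene-end summit, and both are counted again further on with mTORC1 signalling. The fold enrichment at core ribosomal protein genes was not high. Over the 54 core genes the highest gene-end peak had a median of 6.00-fold (quartiles 4.71 and 7.92), and over all 7306 protein-coding genes with a gene-end summit it was 6.07-fold (4.87 and 7.83). The median was 6.43-fold for the mitochondrial group and 6.85-fold for the initiation factors. Of the 66 distinct gene-end peaks at the 90 genes, 25 (37.9%) were below 5-fold, against 32.5% of all 7497 gene-end peaks, and 6 (9.09%) reached 10-fold, against 8.88%.

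The start regions of the 5 genes with the highest gene-end fold that have a promoter sequence in the RefSeq table (GRCm38.p6, the assembly of mm10) are shown, followed by those of all 6 core genes that have a sequence there and had no summit in the gene or its 10 kb flanks, so that occupied and unoccupied starts can be read side by side. Each runs 5′ to 3′ on the strand of the gene, from 170 bases before the listed transcription start through the first 5 transcribed bases. Capitals mark exact matches on either strand to 6 motifs, those of TATA, ETS, YY1, SP/KLF, E-box and CRE, which are spelled out with their counts further on. The first 5 had a summit:
Rps12, chr10:23787205-23787379, minus strand: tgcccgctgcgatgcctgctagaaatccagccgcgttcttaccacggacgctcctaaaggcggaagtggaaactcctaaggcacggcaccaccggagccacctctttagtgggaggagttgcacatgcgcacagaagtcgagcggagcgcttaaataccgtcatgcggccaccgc
Rpl38, chr11:114668410-114668584, plus strand: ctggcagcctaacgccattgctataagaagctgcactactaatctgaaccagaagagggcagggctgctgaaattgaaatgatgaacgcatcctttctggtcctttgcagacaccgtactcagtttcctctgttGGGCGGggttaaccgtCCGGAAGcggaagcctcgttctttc
Rps3a1, chr3:86142664-86142838, minus strand: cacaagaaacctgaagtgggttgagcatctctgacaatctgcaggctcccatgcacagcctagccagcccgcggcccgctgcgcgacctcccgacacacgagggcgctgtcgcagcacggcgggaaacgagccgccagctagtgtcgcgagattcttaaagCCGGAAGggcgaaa
Rpl37, chr15:5116443-5116617, plus strand: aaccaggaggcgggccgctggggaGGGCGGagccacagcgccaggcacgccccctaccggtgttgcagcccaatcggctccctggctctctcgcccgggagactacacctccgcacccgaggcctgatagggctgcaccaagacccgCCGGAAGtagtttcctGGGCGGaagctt
Rpl5, chr5:107900358-107900532, plus strand: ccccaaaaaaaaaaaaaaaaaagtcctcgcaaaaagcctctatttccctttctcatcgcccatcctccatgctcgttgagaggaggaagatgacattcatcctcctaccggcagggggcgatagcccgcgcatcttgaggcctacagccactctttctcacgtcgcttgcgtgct
The next 6 had none:
Rpl6, chr5:121204331-121204505, plus strand: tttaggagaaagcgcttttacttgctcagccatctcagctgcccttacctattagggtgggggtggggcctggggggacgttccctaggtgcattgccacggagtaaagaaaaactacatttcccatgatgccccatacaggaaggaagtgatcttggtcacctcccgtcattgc
Rpl13, chr8:123102180-123102354, plus strand: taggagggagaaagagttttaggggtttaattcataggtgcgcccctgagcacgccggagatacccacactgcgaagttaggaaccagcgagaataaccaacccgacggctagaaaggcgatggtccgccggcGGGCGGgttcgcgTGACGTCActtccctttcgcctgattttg
Rpl19, chr11:98026540-98026714, plus strand: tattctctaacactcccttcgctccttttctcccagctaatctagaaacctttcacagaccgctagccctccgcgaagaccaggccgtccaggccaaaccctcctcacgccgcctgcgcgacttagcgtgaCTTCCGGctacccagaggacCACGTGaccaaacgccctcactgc
Rpl37a, chr1:72711090-72711264, plus strand: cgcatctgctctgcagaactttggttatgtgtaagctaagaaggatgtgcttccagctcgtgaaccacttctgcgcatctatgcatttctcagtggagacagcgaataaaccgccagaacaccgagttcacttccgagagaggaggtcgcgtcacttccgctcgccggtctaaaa
Rpl39, chrX:37085218-37085392, minus strand: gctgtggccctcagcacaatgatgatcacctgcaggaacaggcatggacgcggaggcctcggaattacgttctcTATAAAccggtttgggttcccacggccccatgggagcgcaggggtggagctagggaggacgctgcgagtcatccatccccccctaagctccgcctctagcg
Rps27, chr3:90213644-90213818, minus strand: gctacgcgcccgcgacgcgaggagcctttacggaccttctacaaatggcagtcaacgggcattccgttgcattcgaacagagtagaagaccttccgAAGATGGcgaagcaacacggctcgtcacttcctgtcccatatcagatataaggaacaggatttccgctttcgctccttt
Among the 5 occupied starts, an ETS match begins 20 bases before the start in Rpl38, 23 in Rpl37 and 9 in Rps3a1. SP/KLF matches begin 36 bases before the start in Rpl38 and 146 and 7 bases before it in Rpl37, and Rps12 and Rpl5 hold none of the 6 motifs in this stretch. Among the 6 unoccupied starts, Rpl19 holds an ETS match at 39 and an E-box match at 19 bases, Rpl13 an SP/KLF match at 37 and a CRE match at 24 bases, Rpl39 a TATA match at 96 bases and Rps27 a YY1 match at 74 bases, while Rpl6 and Rpl37a hold none. A match is a description of the letters and not a shown site of binding.

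The small-subunit genes Rps20 and Rps12 held the highest gene-end peaks, followed by Rpl38 of the large subunit (13.6-fold). Rps20, whose protein sits in the head of the small subunit, had a single gene-end peak of 14.0-fold, which ranked 781 of all 27050 peaks. On chromosome 4 its summit lay 29 bp beyond the upper gene end. Rps12, which encodes a protein of the beak of the small subunit, had 13.8-fold enrichment in a peak of 590 bp on chromosome 10 at 23787066 to 23787655, with the summit 157 bp upstream of the listed start. Rps3a1, whose protein lies near the exit of the messenger RNA, reached 12.3-fold with the summit 80 bp upstream of the start. The peaks of Rps20, Rps12 and Rps3a1 were all over 2 times the median of all gene-end peaks (5.79-fold). Rps7, a gene mutated in human Diamond-Blackfan anaemia, had 9.16-fold at 63 bp upstream of the start.

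Proteins of the decoding site came next. Rps23, whose protein touches the codon in the decoding centre, had 8.69-fold enrichment at 38 bp upstream of its start. Rps16, whose tail reaches the transfer RNA, had 7.96-fold at 50 bp, and Rps15 had 7.80-fold at 49 bp upstream. The other core genes of the small subunit with a gene-end summit ranged from 3.08-fold at Rps21 to 6.92-fold at Rps14. Rps6, whose protein is phosphorylated by S6 kinase when mTORC1 is active, was near the bottom, with 3.35-fold at 31 bp upstream. Rps19, the gene most often mutated in Diamond-Blackfan anaemia, had a pair of summits, of 6.22-fold and 5.88-fold. Others were Rps4x, Rps9, Rps10, Rps13, Rps15a, Rps18, Rps26, Rps27a, Rps29 and Rpsa.

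In the large subunit Rpl38 stood first. Rpl38, which is needed for translation of Hox messenger RNAs in mouse embryos, had 13.6-fold enrichment with the summit 71 bp upstream of its listed start on chromosome 11. Rpl37 followed with 10.5-fold in the widest gene-end peak of the set (620 bp). Its summit was 67 bp from the Rpl37 start and 16 bp from an end of Card6, so the peak stands at the ends of both genes. Rpl5, whose protein binds Mdm2 together with Rpl11, had 9.89-fold at 67 bp upstream of the listed start. Rpl11 itself had 4.90-fold at 51 bp. Rpl34 had 9.03-fold at 71 bp upstream, Rpl26 had 8.13-fold at 64 bp upstream, Rpl27 had 8.12-fold at 14 bp downstream and Rpl9 had 7.98-fold at 43 bp upstream.

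Other genes of the large subunit are given by the place of their proteins, as single values beside the median of 5.56-fold over the core large-subunit genes with a gene-end summit. Rpl3 and Rpl8, whose proteins reach toward the peptidyl transferase centre, had 4.60-fold and 3.43-fold. Rpl4, which lines the exit tunnel, had 4.26-fold at 130 bp upstream of the start, and its higher peak of 5.34-fold lay at the other end, 18 bp from an end of Snapc5. Rpl17, which lines the tunnel too, had 1 summit of 3.92-fold inside the gene, 1485 bp from its nearer end, and Rpl39, the third tunnel protein, had none in its locus. Of the stalk genes, Rplp2 had 3.83-fold at 63 bp downstream of the start, Rplp0 had no gene-end summit and Rplp1 no summit in its locus. Rpl12, at the base of the stalk, had 3.10-fold. Other large-subunit genes with a gene-end summit were Rpl7, Rpl7a, Rpl10a, Rpl13a, Rpl15, Rpl18, Rpl21, Rpl23, Rpl27a, Rpl28, Rpl29, Rpl30, Rpl31, Rpl32, Rpl35a, Rpl36, Rpl36a and Rpl41, from 3.15-fold at Rpl7a to 7.75-fold at Rpl41.

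**Figure D2:**
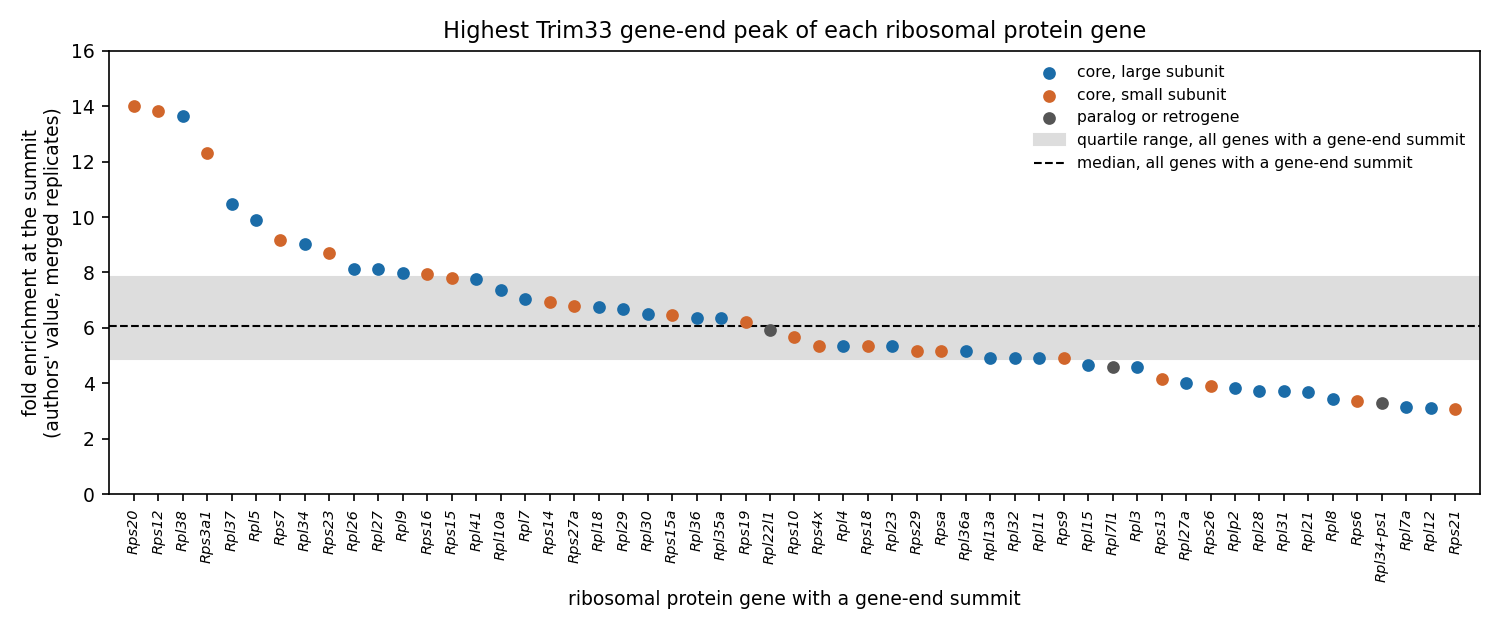
Each point is the authors' fold enrichment at the summit of the highest gene-end peak of 1 ribosomal protein gene, for 55 of the 57 genes with such a peak, ordered from high to low and coloured by class. The dashed line and grey band give the median (6.07) and quartiles (4.87 and 7.83) over all protein-coding genes with a gene-end summit, and the points run from 14.0 at Rps20 to 3.08 at Rps21 on both sides of that line.

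The summits lay just upstream of the transcription start. The RefSeq promoter table lists a strand and at least 1 start for 69 of the 90 genes. Measured from any listed start, 45 of these 69 (65.2%) had a summit within 1000 bp, where 34.8% of all protein-coding genes with a listed start had one. For the core genes this was 42 of 57 (73.7%). The nearest summit was between 329 bp upstream and 115 bp downstream of the start at all 45 genes, although the window allowed 1000 bp. The median position was 63 bp upstream, with 37 of 45 (82.2%) on the upstream side, and over all genes it was 39 bp upstream with 66.9% on that side. Within 150 bp of the start lay 39 of 45 summits (86.7%), against 73.2% over all genes. The 3′ ends were rarely occupied: 2 of 69 genes (2.90%), Rpl4 and Rpl41, had a summit within 1000 bp of the annotated end, where 2.96% of all genes did.

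**Figure D3:**
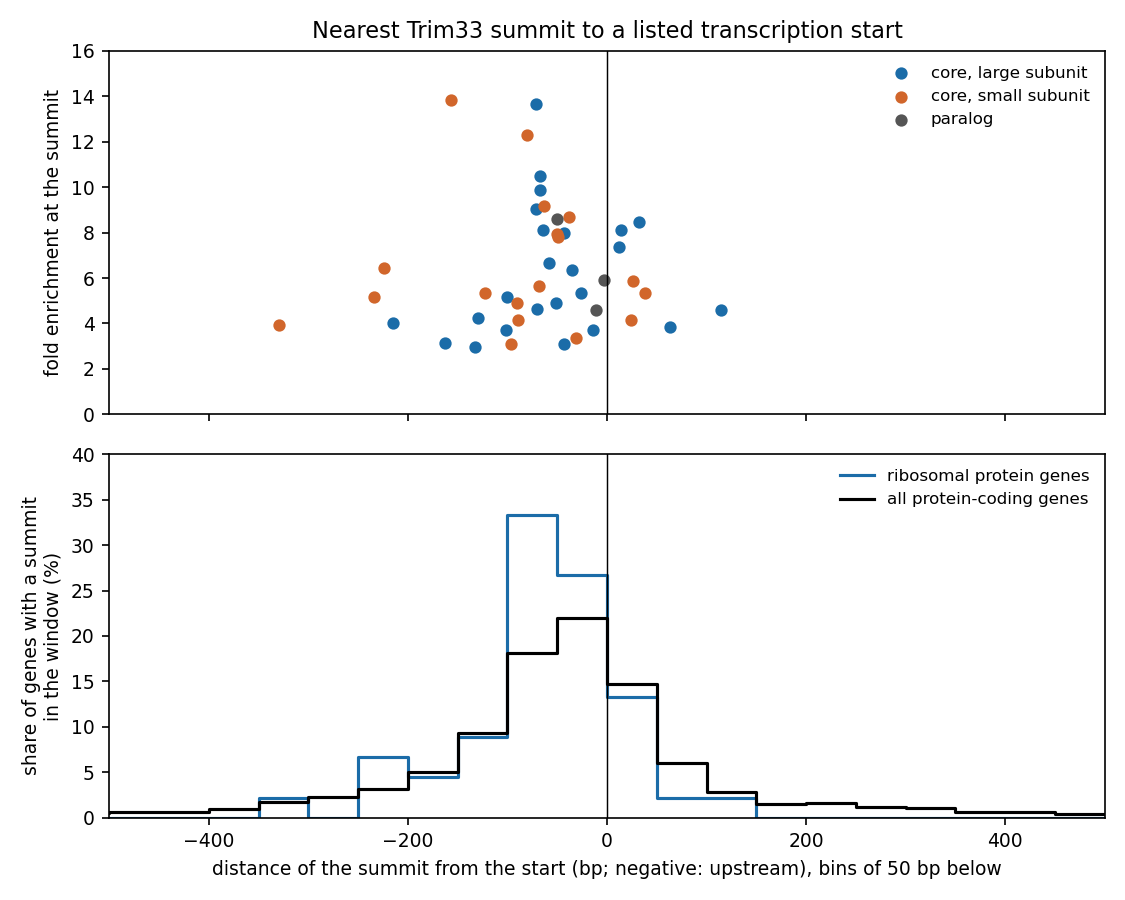
The upper panel plots the fold enrichment at the summit nearest to a listed start against its distance from that start in bp (negative is upstream) for 45 ribosomal protein genes, coloured by class. The lower panel gives the share of genes with a summit in the window (%) in bins of 50 bp for these genes (blue) and for all protein-coding genes (black), with 500 bp shown on each side. The summits of the ribosomal protein genes lie between 329 bp upstream and 115 bp downstream of the start, and most lie in the 100 bp before it.

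The listed start and the outer end of the gene did not always coincide, and this moved some genes. Rps2, whose protein lies at the entry of the messenger RNA, had a 4.16-fold summit 1853 bp from the outer gene end and so counted as having none, but it lay 89 bp upstream of the listed start. The same held for Rpl22, which is needed for development of alpha-beta T cells in mice and had 8.48-fold at 32 bp downstream of a listed start, and for Rps27l. At Rpl38 the summit was 691 bp from the outer end and 71 bp from the listed start. By distance from the outer ends, the genes with a nearest summit just inside the 1000 bp limit were Rpl38 at 691 bp, Rpl29 at 597 bp and Rps26 at 329 bp, and those just outside were Rpl22 at 1322 bp, Rps27l at 1412 bp and Rpl17 at 1485 bp.

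The paralogs and retrogenes differed from the core genes in their counts. Of 13, 3 had a gene-end summit. Rpl22l1, a paralog of Rpl22 that can take its place in the ribosome, had 5.92-fold at 3 bp upstream of its start. Rpl7l1, a paralog of Rpl7, had 4.60-fold at 11 bp upstream, and Rpl34-ps1 had 3.28-fold at 303 bp above its upper end. Rps27l, a target of p53 in human cells, had 8.61-fold at 50 bp upstream of a listed start inside the gene, while Rps27, of which it is a paralog, had no summit closer than 17995 bp. The start of Rps27l is shown because it carries the peak that the start of its partner lacked, with SP/KLF letters in capitals:
Rps27l, chr9:66945916-66946090, plus strand: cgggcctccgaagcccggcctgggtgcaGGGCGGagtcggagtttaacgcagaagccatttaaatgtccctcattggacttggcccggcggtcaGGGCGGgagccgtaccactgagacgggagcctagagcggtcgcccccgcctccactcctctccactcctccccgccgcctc
These letters begin 142 and 76 bases before the start. Rpl3l, the form of Rpl3 in striated muscle, had 1 summit 7852 bp away, which is the 4.16-fold start peak of its neighbour Rps2. Rpl37rt had 1 summit 9081 bp away (5.49-fold), 3 bp from an end of Acads. The testis forms Rpl10l and Rpl39l had no summit in their loci, and neither had Rpl31-ps12, Rpl32l, Rpl36al, Rps23rg1 and Rps27rt.

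When the gene body and flanks of 10 kb were counted as 1 locus, 75 of 90 genes (83.3%) held a summit, against 53.9% of all protein-coding genes. For the core genes it was 69 of 77 (89.6%). The 8 core genes with none, among them Rpl6, Rpl13, Rpl19, Rpl37a, Rpl39, Rplp1 and Rps27, had their nearest summits 10785 to 36688 bp away. A further 15 core genes had a locus summit but none at a gene end, among them Rpl10, Rpl14, Rpl17, Rpl22, Rpl23a, Rpl24, Rpl35, Rplp0, Rps2, Rps3, Rps24, Rps25 and Rps28. Distal summits, those farther than 1000 bp from any protein-coding gene end, were found at 22 of 90 loci (24.4%). Of all genes 31.4% had one, and of protein-coding genes no longer than the longest core gene 16.5% did. Distance was taken from the outer gene ends, so a peak at a listed start inside a gene counts as distal. The 22 loci include Rps2, Rpl22 and Rps27l, with summits 89, 32 and 50 bp from a listed start. They also include Rpl3l, whose only summit is the start peak of Rps2. How many such start peaks are in the shares of all genes and short genes was not counted. The bodies of the genes held a summit in 22 of 90 (24.4%), against 33% of all genes. Both counts depend on gene length, and the body share of short genes was not counted.

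The highest peaks away from the ends were at Rps13 and Rpl14. Rps13 had 12.4-fold enrichment at 6664 bp upstream of its start, about 3 times the 4.16-fold of its own start peak. Rpl14 had 10.6-fold at 2639 bp beyond its end. At Rps24 a 9.89-fold summit lay 3612 bp upstream but 4 bp from an end of Polr3a. At Rpl7 a 9.29-fold summit was 98 bp from an end of Rdh10, and at Rpl13a one of 8.98-fold was 102 bp from an end of Flt3l, so these peaks stand at the ends of neighbours. Among the 8 genes with 3 or more locus summits, Rpl7 had 4, and Rpl13a, Rpl27, Rpl35, Rpl37, Rps21 and Rps29 had 3.

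Some gene-end peaks were shared with neighbouring genes. Of the 66 gene-end peaks, 16 also lay within 1000 bp of an end of another protein-coding gene, and 9 of them were nearer to that gene. These 9 were 1 peak each of Rpl4, Rpl7a, Rpl9, Rpl12, Rpl36, Rpl37, Rpl41, Rps18 and Rps27a, with the other end 2 to 239 bp from the summit. At Rpl7a the summit was 2 bp from an end of Med22, and at Rps18 it was 9 bp from an end of Vps52. The remaining 7 shared peaks belonged to Rpl4, Rpl7, Rpl15, Rpl35a, Rpl36, Rplp2 and Rps27a. With only peaks that had no other end in the window, 46 of 90 genes (51.1%) had a gene-end summit, against 24.6% of all genes counted in the same way.

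The width of the window and the strictness of the peak set changed the genes and the background together. With a window of 500 bp, 61.1% of the ribosomal protein genes had a gene-end summit against 29.8% of all genes, and with 2500 bp it was 71.1% against 38.5%. When any base of a peak could count, the shares were 63.3% and 34%. Peaks at or above the median fold left 30.0% against 17.2% at gene ends and 46.7% against 35.8% by locus, and those at or above the median −log10 q left 32.2% against 17.6% at gene ends. On the start side alone, 42 of 69 genes with a strand (60.9%) had a summit, against 32.1%. Loci with flanks of 5 kb held a summit at 75.6% of the genes against 49.1%, and with flanks of 50 kb at 95.6% against 71.5%. Among genes without Olfr, Vmn, Gm and Rik symbols the background at gene ends was 38.1%.

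Promoter sequence, which the symbol rule did not use, was searched for motifs, and most of them were found in a minority of the core promoters. The motifs were searched as exact letters on both strands in the 300 bases from 250 before to 50 after the start. ETS letters (CCGGAAG) were in 23 of 57 core promoters (40.4%), 21.6% of promoters of all genes with a gene-end summit and 11.9% of all promoters. YY1 letters (AAGATGG) were in 15.8%, 7.30% and 6.35%. CRE letters (TGACGTCA) were in 8.77%, 3.87% and 2.33%. SP/KLF letters (GGGCGG) were in 59.6% of core promoters, 69.9% of promoters of genes with a gene-end summit and 46.3% of all. The letters CTTT on the gene strand within 5 bases of the start, part of the pyrimidine start of these genes, were in 22.8% of core promoters, 4.36% and 4.66%.

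Letters of factors known from T cells and TGF-beta signalling were at or below the share of all promoters for AP-1, RUNX and SMAD, and above it for PU.1 and IRF. AP-1 letters (TGANTCA) were in 1 of 57 core promoters (1.75%) against 7.03% of all, and RUNX letters (TGTGGT) in 10.5% against 15.1%. The palindromic SMAD letters (GTCTAGAC) were in 0 of 57 core promoters and 0.212% of all, and the shorter SMAD letters (CAGACA) were in 14.0% against 19.0%. PU.1 letters (GAGGAAG) were in 17.5% against 13.5%, and IRF letters (GAAANNGAA) in 19.3% against 8.24%. E-box (8.77% and 7.91%) and NRF1 letters (GCATGCGC; 3.51% and 3.61%) were as frequent as in all promoters, and TATA letters were in 10.5% against 13.3%. Some of these letters overlap, since ETS and PU.1 share GGAAG.

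**Figure D4:**
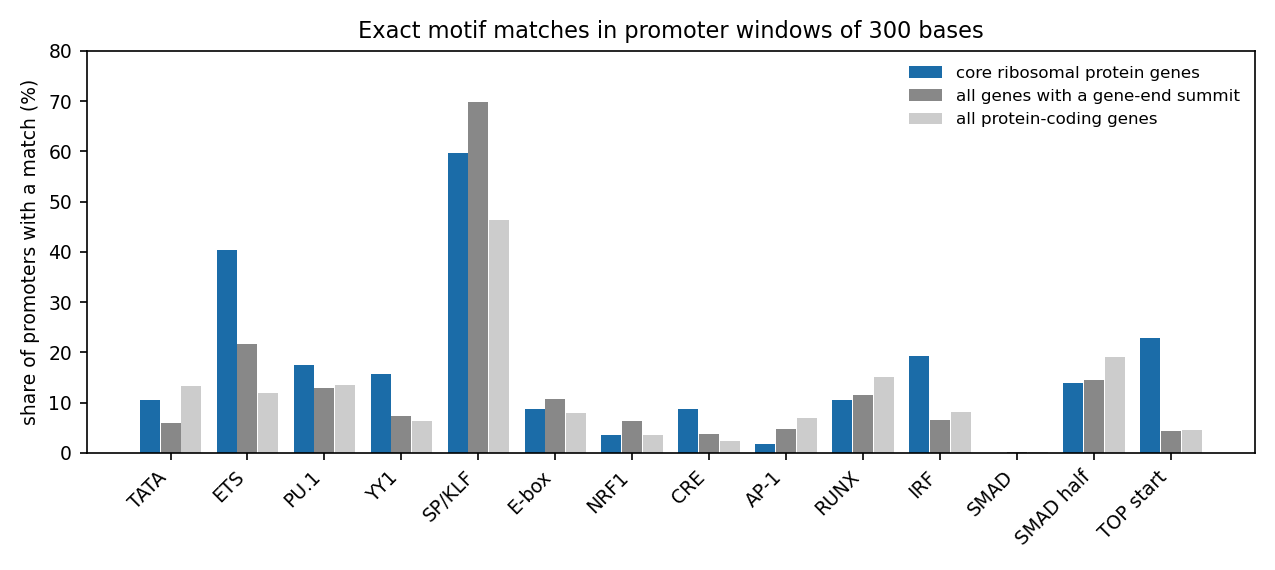
Bars give the share of promoter windows (%) with an exact match to each of 14 motifs on the x axis, for 57 core ribosomal protein genes (blue), all genes with a gene-end summit (dark grey) and all protein-coding genes (light grey). The blue bars exceed both others by the most percentage points for ETS (40.4%, 21.6% and 11.9%) and the pyrimidine start (22.8%, 4.36% and 4.66%).

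Ribosomal protein genes with and without a gene-end summit could be set side by side. Of the 69 with a promoter sequence, 42 had a gene-end summit and 27 had none. Gene ends here are the outer ends. The 27 thus include Rps2, Rpl22 and Rps27l, with summits 89, 32 and 50 bp from a listed start. At Rps2 and Rps27l the searched promoter was that of the occupied start, and its SP/KLF letters count on the side without a summit. SP/KLF letters were in 29 of 42 (69.0%) against 10 of 27 (37.0%), ETS letters in 17 (40.5%) against 8 (29.6%) and TATA letters in 2 (4.76%) against 7 (25.9%). The median GC content was 59.3% and 52.7%. Over all genes, GC content was 62.3% with and 52.3% without a gene-end summit, and SP/KLF letters were in 69.9% and 34.3%. ETS letters were in 21.6% and 7.0% of all genes with and without one, and TATA letters in 5.98% and 17.1%. For these motifs the direction was thus the same over all genes as in the ribosomal protein genes. Other motifs went opposite ways in the ribosomal protein genes and over all genes. IRF letters were in 9 of 42 ribosomal protein genes with a gene-end summit (21.4%) against 2 of 27 without (7.41%). Over all genes they were in 6.49% against 9.14%. PU.1 letters were in 9 (21.4%) against 3 (11.1%), but in 13.0% against 13.7% over all genes. The letters of the pyrimidine start (11 against 4 genes), E-box (3 against 2), AP-1 (1 against 0) and NRF1 (1 against 1) also differed in direction from all genes. These directions rest on few ribosomal protein genes and were not tested. The 27 genes without a gene-end summit include 10 of the 12 paralogs with a sequence, and the part of base composition in the counts was not tested.

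Features of the loci were counted in occupied and unoccupied core genes. At least 1 small nucleolar RNA gene lay inside 30 of the 77 core genes (39.0%), against 1.70% of all protein-coding genes. A gene-end summit was found at 20 of these 30 hosts (66.7%) and at 34 of the other 47 (72.3%). Over all 372 protein-coding genes with such an RNA gene inside, 180 (48.4%) had one, against 33.4% of all genes. These 372 include the 30 core genes. Their median length was 59761.5 bp against 17169 bp over all genes, and the part of length in the share was not tested. An end of another protein-coding gene lay within 1000 bp of 28 core genes, and 19 of them (67.9%) had a gene-end summit, against 35 of 49 (71.4%) of those without such a neighbour. Over all 5426 protein-coding genes with such a neighbour the share was 51.2%. The 4 genes on chromosome X, where 15.5% of all genes had a gene-end summit, had one at Rps4x (5.34-fold) and Rpl36a (5.15-fold) and none at Rpl10 and Rpl39. Chromosome 7, with the most genes of the set, had gene-end summits at 11 of 14, where 26.8% of all genes on it had one.

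Mouse chromosomes carry many processed copies of these genes, and how reads that match several places were treated is not given in the sources used here. Of 318 pseudogenes named after a ribosomal protein gene, 5 (1.57%) held a gene-end summit, against 1.74% of all 10429 pseudogenes in the table.

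Other genes of ribosome production were counted in the same way, beside the 33.4% of all protein-coding genes with a gene-end summit. Among subunit genes outside the symbol rule, Fau had a gene-end summit of 4.33-fold and Rack1 had one of up to 4.91-fold. Of 40 ribosome biogenesis factors, 30 had one, with a median of 6.08-fold. The highest were at Heatr1, a factor of early small-subunit assembly (10.6-fold), and the kinase gene Riok2 (10.4-fold), while Nop58, Nop2, Bysl, Dkc1, Nhp2, Imp3 and Sbds had no summit in their loci. RNA polymerase I and its factors had 8 of 12, from Rrn3 (3.24-fold) to the catalytic subunit gene Polr1a (9.24-fold). Other genes whose messenger RNAs start with a pyrimidine tract had 11 of 14, with Eif3e (14.6-fold) and Eif3f (10.9-fold) highest. Genes of mTORC1 signalling, which sets the translation of these messenger RNAs, were listed together with Myc, an activator of ribosome production. Of this list 9 of 13 had a gene-end summit, all below 8-fold. Myc was among the 9, with 3.05-fold at a gene end and up to 9.18-fold in its locus. These lists overlap with the initiation factor group above, since genes such as Eif3e and Eif3f were counted in both.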

How the data were processed

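ChIP-seq of Trim33 in cultured mouse Th17 cells gave 2 ChIP and 2 input libraries, grouped by the sample titles. Per the submitters' processing notes, the authors used MACS2 2.1.1.20160309, Bowtie 1.2.1.1 and also Trim Galore 0.3.7, on mm10. Settings, threshold and control: not given in the sources used here. The deposited peak list was made on merged replicates, per the file's naming. Its fold enrichment (a ratio) and its −log10 q at the summit are the authors' values, and the authors' score was not used further. A peak in a merged list need not be present in each library.

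Genes, promoters and strands came from RefSeq tables of the same assembly. Gene-end summits were those no farther than 1000 bp from an end, and a locus was the body with 10 kb on each side. Coordinates count from 1. Promoters were found for 69 of 90 genes; where several starts are listed, motifs were searched at the one nearest to the outer 5′ end. Counting was checked on simulated summits. No test was run, because the list holds no replicate values. Some genes are counted but not reported here by name. The rule for values takes the 15 genes with the highest gene-end fold, the 5 with the highest locus peak away from their ends, those with 3 or more locus summits, paralogs, genes whose summit is shared with a neighbour, and the 3 genes just inside and just outside the window. Values of other genes, chosen by role, were added after they were seen. Members and lists were chosen with earlier results of these data known. Python 3.11.15, pandas 2.3.3 and numpy 2.4.6 were used. Alternatives were stricter peak sets, other windows, loci, gene sets and backgrounds. Motif and start positions were not simulated.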

Additional observations from a re-analysis of the deposited data

How the results depend on the processing

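No paired analysis was possible because the peaks were called on merged replicates. The share of genes with a gene-end summit was 63.3%. Its 95% binomial interval served only as a yardstick for the alternatives. That interval treats the genes as independent draws and measures no error between cultures. The share stayed inside it with core genes only, with Rps19bp1, without chromosomes X and Y, and with other windows. The share also did so with peak intervals, with start ends or listed starts, and with peaks nearer to the gene. It was 30.0% with peaks at or above the median fold and 32.2% with those at or above the median −log10 q, where all genes had 17.2% and 17.6%, 2.90% at annotated ends alone, and 51.1% with no other end in the window. The share by locus was 46.7% in the stricter set by fold, where all genes had 35.8%. In the stricter set by −log10 q it was 47.8%, and the share of all genes was not counted there. The share by locus was 24.4% in gene bodies alone, 95.6% with 50 kb on each side and 24.4% for distal summits. All genes had 33%, 71.5% and 31.4% in these 3 settings. The median fold of gene-end peaks, 5.41, was 7.88 and 7.75 in the stricter sets, which remove low peaks by construction. The background at gene ends was 38.1% without Olfr, Vmn, Gm and Rik symbols and 23.4% among genes up to the longest core gene, and by locus 60.8% and 38.5%. For the others the cause was not tested. The alternatives with short genes, listed starts and no other end in the window were chosen after the data were seen. Depth per library is unknown, so a gene with no summit is one without a called peak, not one shown to lack Trim33.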
